A study of Mus musculus with 16 samples.

Results

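Epididymal white adipose tissue (eWAT) of LRG1 mice was compared between week 10 and week 7 of age, over 8 of the 16 RNA-seq libraries of the study. All 16 came from C57BLKS/J-db/db males on standard chow. These animals lack a working leptin receptor and become obese and hyperglycaemic. LRG1 mice had received AAV8-LRG1-FL, an adeno-associated virus that reaches liver and fat and carries LRG1 with a C-terminal FLAG tag under the ubiquitous CB7 promoter, and control mice had received AAV8-eGFP. The 4 LRG1 mice of week 7 and the 4 of week 10 were different animals, and the 8 libraries were taken by their labels. The 8 libraries of eGFP mice, 4 at each age, entered the same model and gave the same interval without LRG1. Cages were assigned to one virus each and the cage of a mouse is not given, so cage and age cannot be told apart.

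In db/db males this interval is a time of fast fat gain and falling insulin sensitivity. Fat cells make fatty acids from glucose through a cytosolic chain of enzymes that starts from citrate, while the macrophages, T cells and B cells of the depot respond to interferon-gamma by raising the genes of antigen presentation. LRG1, leucine-rich alpha-2-glycoprotein 1, is a secreted protein known for its part in TGF-beta signalling in blood vessels and is made by liver, neutrophils and fat.

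The tissue carried the label's markers in both LRG1 groups. Levels are CPM, a gene's counts as a proportion of its TMM-scaled library, not corrected for gene length. Adipoq, which encodes adiponectin, was at 1144 to 1538 CPM in week 7 and at 1037 to 1327 CPM in week 10, and the lipid droplet gene Plin1 was at 676 to 874 and at 700.0 to 773 CPM. The mesothelial genes Wt1, Upk3b and Msln, which separate visceral from subcutaneous fat, were present in all 8 libraries, Wt1 at 10.7 to 16.9 CPM. Total counts of the 8 libraries ran from 53276894 to 67539937. Pairs of libraries correlated at 0.985 to 0.987 within week 7 (Pearson, log2 CPM over genes, which are not independent replicates), at 0.981 to 0.985 within week 10 and at 0.979 to 0.985 between them. The first principal component of the 8 libraries, with 27.3% of the variance, placed week 10 replicate 4 at -13.1, among the week 7 libraries.

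The gene of the transgene was read in every library. Lrg1 was at 478, 302, 316 and 288 CPM in week 7 and at 506, 624, 428 and 286 CPM in week 10, which overlap (log2 fold change 0.41, SE 0.19, adjusted p = 0.59). In eGFP mice it was at 86.2 to 115 CPM over both ages. Counts on this gene do not separate viral from native transcript.

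Few genes passed the test. Of 20822 genes tested with edgeR's quasi-likelihood test, 1 was higher and 1 was lower in week 10 at an adjusted p below 0.01 (Benjamini-Hochberg), which is 0.00961% of genes. At an adjusted p below 0.05 the counts were 5 and 5, or 0.048%. At an unadjusted p below 0.05 there were 887 higher genes (4.26%) and 859 lower genes (4.13%). In 757 genes (3.64%) all 4 week 10 libraries lay above all 4 of week 7, and in 711 genes (3.41%) they lay below. The log2 fold changes, week 10 over week 7, had a median of -0.0032, and their 95% intervals lay within 1 log2 unit of 0 for 15073 genes (72.4%). In eGFP mice the same model called 131 higher genes (0.629%) and 315 lower genes (1.51%). The count in LRG1 mice depended on the tool: DESeq2 on the same 16 libraries called 51 genes, 29 of them higher (0.296% of those with an adjusted p), and edgeR on the 8 LRG1 libraries alone called 11 (0.0567%). DESeq2 on those 8, a fit added after seeing the data, called 256 (1.46%), 140 of them higher. In eGFP mice edgeR on the 8 libraries of that arm called 24 higher and 85 lower genes, and leaving out 1 library moved the higher calls there between 29 (without week 7 replicate 1) and 233 (without week 10 replicate 2). A block for the replicate number left 0 calls, with an adjusted p of 0.016 for Prps1 and of 0.025 for Orm2. Leaving out 1 library at a time gave 0 to 4 calls, with 0 when LRG1 week 7 replicate 1, 2 or 4 or week 10 replicate 2 was left out and 4 without eGFP week 10 replicate 4.

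**Figure D1:**
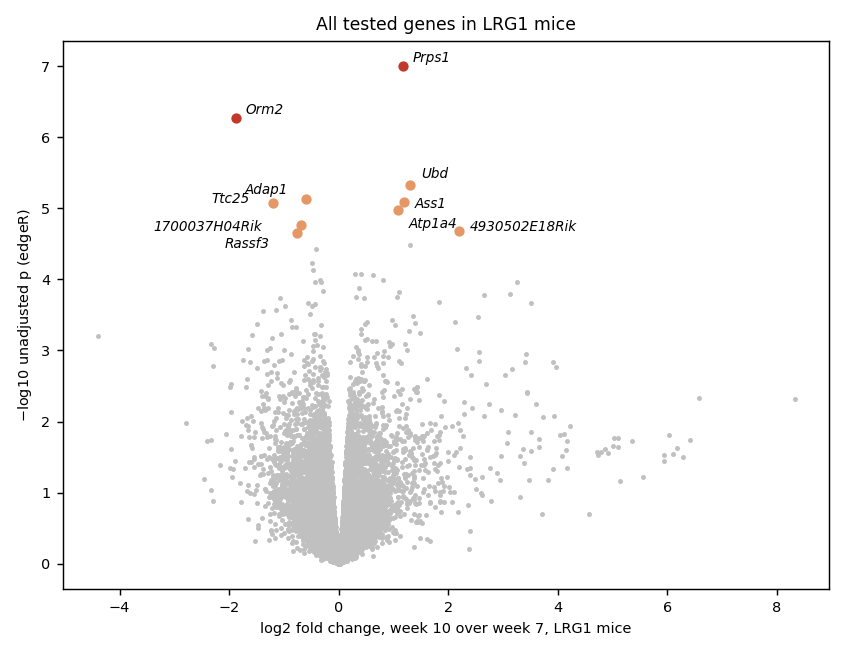
Each point is 1 of the 20822 genes tested in LRG1 mice, by its log2 fold change (week 10 over week 7, x axis) and by minus log10 of its unadjusted edgeR p (y axis). Prps1 and Orm2 (red) had an adjusted p below 0.01, the other 8 named genes (orange) an adjusted p below 0.05.

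The gene that rose was Prps1, on chromosome X (GRCm38, 140456613 to 140476140). It encodes a phosphoribosyl pyrophosphate synthetase, which makes the activated ribose that nucleotide synthesis starts from. Its level was 40.8, 35.2, 40.5 and 34.4 CPM in the week 7 libraries and 81.1, 99.3, 80.5 and 81.5 CPM in those of week 10. The 2 ages did not overlap. The log2 fold change was 1.18 (SE 0.13, adjusted p = 0.0020). In eGFP mice Prps1 was at 62.6 to 90.2 CPM in week 7 and at 58.9 to 87.6 CPM in week 10, so the LRG1 libraries of week 7 were the ones that lay apart from the other 3 groups. The change in LRG1 mice differed from that in eGFP mice by 1.24 log2 units (SE 0.18, adjusted p = 0.0024). The related synthetase Prps2, also on X, was at 30.0 to 37.6 and at 36.4 to 41.6 CPM, groups that overlap, with a log2 fold change of 0.23 (SE 0.08, adjusted p = 0.45).

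The gene that fell was Orm2, on chromosome 4 (63362449 to 63365878), which encodes an alpha-1-acid glycoprotein, a plasma protein of the acute phase. Its level was 46.1, 69.2, 33.9 and 54.9 CPM in week 7 and 15.8, 10.5, 13.9 and 15.6 CPM in week 10, with no overlap. The log2 fold change was -1.87 (SE 0.23, adjusted p = 0.0056). In eGFP mice it also fell, from 12.4 to 21.5 CPM to 3.38 to 6.27 CPM, by a log2 fold change of -1.89 (adjusted p = 3.1e-04), and the difference between both courses was 0.02 (SE 0.32, adjusted p = 0.99). Orm1 and Orm3 are neighbours of Orm2 with near-identical sequence, so reads may have been split between them. Orm3 had a log2 fold change of -1.37 (SE 0.50, adjusted p = 0.48) and Orm1, at 217 to 293 and 165 to 221 CPM, one of -0.43 (SE 0.23, adjusted p = 0.67). Of the 16 tested genes of the acute phase list, which holds Orm1 and Orm2, 3 were higher and 2 lower at an unadjusted p below 0.05. Saa3, a serum amyloid of fat and macrophages, was at 20.1 to 39.9 and 33.0 to 88.2 CPM. Orm2 is made mainly by liver, and the list of liver genes had a median log2 fold change of -0.18 over 17 genes. Its level, as mean log2 CPM of the list, was -1.43 to 0.69 in week 7 and -1.48 to 0.12 in week 10 and its part in the result was not tested.

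Next in order of p came 8 genes with an adjusted p below 0.05, named here after their values were seen. Where the ages of these genes, or of Prps1 and Orm2, do not overlap, this follows largely from their choice on the same libraries. It adds no support. Ubd encodes the ubiquitin-like protein FAT10, a target of interferon-gamma. It was at 32.4, 26.3, 24.3 and 31.2 CPM in week 7 and at 76.4, 74.4, 63.6 and 67.5 CPM in week 10 (log2 fold change 1.30, SE 0.19, adjusted p = 0.030). All 4 week 10 libraries lay above all of week 7. In eGFP mice Ubd was at 146 to 236 CPM in week 7 and at 74.1 to 143 CPM in week 10, the latter overlapping the LRG1 libraries of that age (difference between the courses 2.11, adjusted p = 7.5e-04). Ass1, argininosuccinate synthase of the urea cycle, went from 1.28 to 1.51 CPM to 2.47 to 3.82 CPM (log2 fold change 1.19, adjusted p = 0.030). Atp1a4, a sodium pump subunit best known from sperm, was at 2.72 to 3.64 and at 4.64 to 7.60 CPM (1.08, adjusted p = 0.032). The unnamed transcript 4930502E18Rik on X, at 0.617 to 1.02 and at 2.11 to 5.21 CPM, had the largest fold of the 10 (2.20, SE 0.37, adjusted p = 0.047).

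The lower genes at this threshold were Adap1, Ttc25, 1700037H04Rik and Rassf3, and in each the 4 libraries of week 10 lay below those of week 7. Adap1, an Arf GTPase-activating protein, was at 34.9 to 44.8 and at 22.97 to 29.1 CPM (log2 fold change -0.59, SE 0.09, adjusted p = 0.030), and eGFP mice showed a fall of like size (-0.62, adjusted p = 8.4e-04). Ttc25, a docking factor of ciliary dynein arms, was at 3.69 to 5.05 and at 1.69 to 2.12 CPM (-1.20, SE 0.19, adjusted p = 0.030). Rassf3, of the Ras association domain family, went from 131, 156, 179.8 and 138 CPM to 102, 69.98, 95.4 and 89.1 CPM (-0.76, SE 0.13, adjusted p = 0.047). 1700037H04Rik was at 50.4 to 62.6 and at 30.8 to 39.4 CPM (-0.69, SE 0.11, adjusted p = 0.045). For all 4 of these genes the mean in LRG1 mice of week 7 was the highest of the 4 groups.

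**Figure D2:**
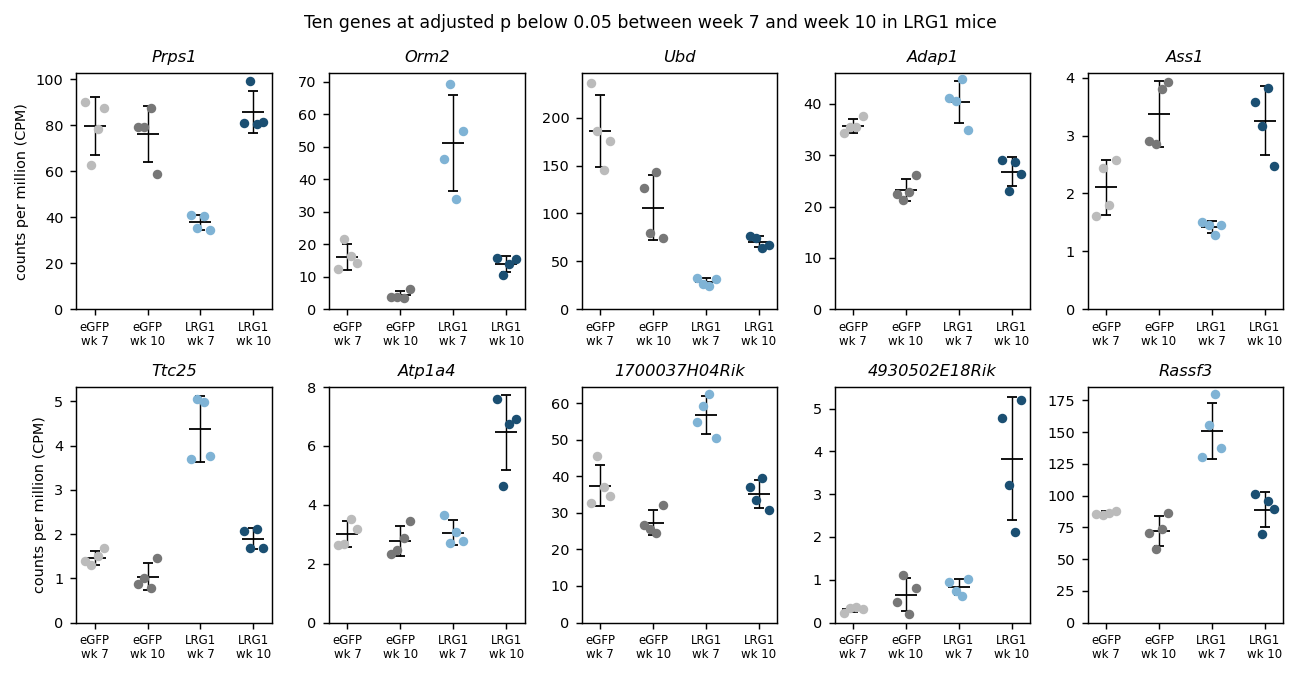
CPM (y axis, from 0) in every library of the 4 groups for the 10 genes with an adjusted p below 0.05 in LRG1 mice; bars show mean and SD of 4 libraries. The week 7 LRG1 libraries stand below the other 3 groups for Prps1 (34.4 to 40.8 CPM), and in all 10 genes the LRG1 libraries of both ages do not overlap. That lack of overlap follows largely from choosing the genes on the same libraries and adds no support. Of all genes, 3.64% had week 10 above in this way and 3.41% below.

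The DESeq2 fit on 16 libraries called both Prps1 and Orm2 among its 51 genes. In 50 of the 51 the 2 ages did not overlap, beside 3.64% of all genes with week 10 above and 3.41% with it below. All 51 had an unadjusted edgeR p below 0.05. Both follow largely from choosing the genes on the same libraries and add no support. The following were named from that fit after their values were seen, and edgeR gave each an adjusted p above 0.05. Enpep, the aminopeptidase that trims angiotensin II, was at 354, 450.1, 445 and 360.2 CPM in week 7 and at 187, 141, 246 and 192 CPM in week 10 (log2 fold change -1.07, SE 0.22, edgeR adjusted p = 0.12). Elovl4, an elongase of very long fatty acids, was at 10.99 to 13.1 and at 1.67 to 5.82 CPM, and Hephl1, a copper-dependent ferroxidase, at 32.8 to 50.4 and at 7.504 to 18.8 CPM. Tnfaip6, which encodes a hyaluronan-binding protein of inflamed tissue, was at 2.88 to 4.15 and at 1.12 to 1.80 CPM. Each of these lower genes had a negative fold change in eGFP mice as well, at -0.64 for Enpep, -1.37 for Elovl4, -1.31 for Hephl1 and -0.28 for Tnfaip6.

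Among the higher genes of that fit, Cxcl12, the chemokine that holds blood-forming and lymphoid cells in tissue, was at 47.2, 42.4, 36.9 and 41.2 CPM and then at 81.9, 55.9, 69.9 and 86.5 CPM (log2 fold change 0.81, SE 0.16, edgeR adjusted p = 0.10). Gjb2, which encodes the gap junction protein connexin 26, was at 3.69 to 4.66 and at 8.77 to 15.7 CPM, and the lysozyme gene Lyz1 at 5.90 to 9.92 and at 13.6 to 25.6 CPM. Abcb4, a phospholipid exporter, and the calcium channels Ryr1 and Ryr2 had log2 fold changes of 1.11, 0.97 and 0.97. Gpr50, an orphan receptor akin to the melatonin receptors, had a log2 fold change of 3.25 that rested on 3 libraries: 26.1, 9.99 and 24.9 CPM in replicates 1, 2 and 4 of week 10 against 1.57 CPM in replicate 3 and 0.675 to 2.64 CPM in week 7.

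The 11 calls of edgeR on the 8 LRG1 libraries alone were also named after their values were seen. They held Prps1, Orm2, Ubd and Gjb2, and also Mest, Copg2 and Klf14, which lie within one imprinted cluster on chromosome 6 (30723547 to 30959078 from the start of Mest to the end of Klf14). Mest, a gene that is raised when fat cells enlarge, was at 409.8, 419, 407 and 396 CPM in week 7 and at 746, 673, 574 and 635 CPM in week 10. Its log2 fold change was 0.69, with an adjusted p of 0.0063 in the 8 libraries and of 0.61 in the 16. The eGFP mice of week 10 spread widely in the same gene, at 159, 531, 120.5 and 328 CPM. Klf14, a transcription factor of fat, went from 4.96 to 6.82 CPM to 11.3 to 16.6 CPM (1.25, SE 0.40), and Copg2, a coatomer subunit, from 88.0 to 94.9 CPM to 119 to 134 CPM (0.47, SE 0.13). The ends of Mest and Copg2 overlap on opposite strands, and whether strand was used in counting is not given in the sources used here. The same fit also called Tcerg1l (0.439 to 0.715 and 2.22 to 3.28 CPM), Endou (7.18 to 8.48 and 11.2 to 13.2 CPM) and Nim1k (7.11 to 7.61 and 11.2 to 13.2 CPM).

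Gene lists were read by their counts at an unadjusted p below 0.05, beside the 4.26% and 4.13% of all genes, and by the median log2 fold change of their members. Of 57 lists, 46 had a median within 0.2 of 0, and of 1278 tested members 1, Orm2, was called. Mature adipocyte genes had a median of -0.03 over 26 genes, of which 21 had a 95% interval within 1 log2 unit of 0. Insulin signalling and glucose uptake genes had one of 0.02 over 24 genes, collagen chains -0.11 over 33 and endothelial genes 0.04 over 24. The macrophage list stood at -0.01, and all 22 of its genes had an interval within 1 log2 unit of 0. Adgre1, which encodes the macrophage marker F4/80, had a log2 fold change of -0.07 (SE 0.20), and Trem2, of lipid-associated macrophages, one of -0.19 (SE 0.32). Lep, the leptin gene, was at 4044 to 4923 and at 4912 to 5296 CPM (0.21, SE 0.26, adjusted p = 0.91).

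**Figure D3:**
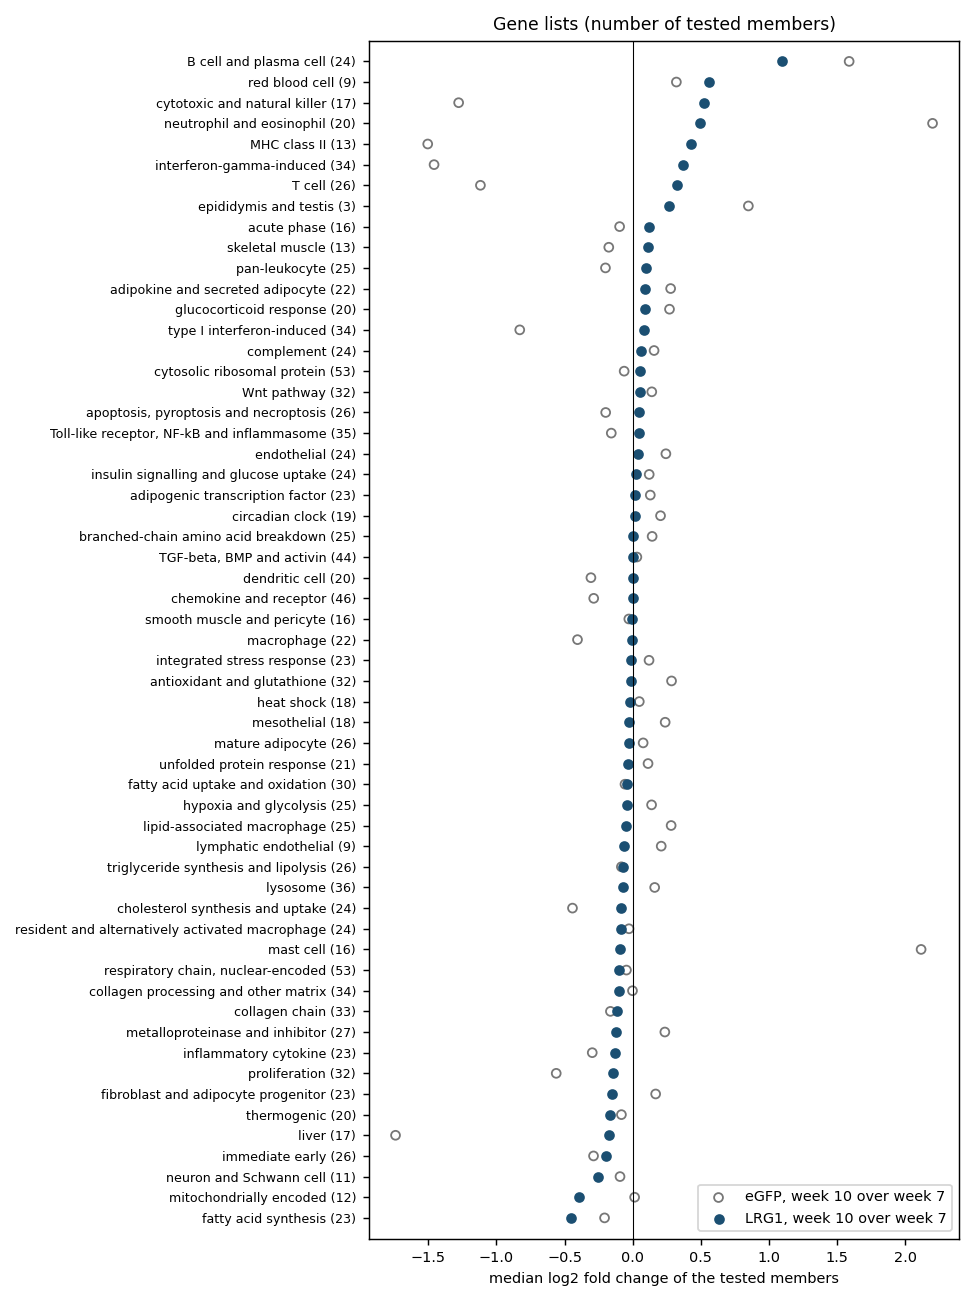
Median log2 fold change, week 10 over week 7 (x axis), of the tested members of 57 gene lists (rows, number of members in brackets) in LRG1 mice (filled) and eGFP mice (open). LRG1 medians run from -0.46 for fatty acid synthesis to 1.10 for B cell and plasma cell genes, and 46 of 57 lie within 0.2 of 0.

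Fatty acid synthesis was the list with the lowest median, -0.46 over 23 genes. In it 12 genes were lower and 0 higher at an unadjusted p below 0.05, while none was called. Acly, the ATP citrate lyase that opens the pathway, was at 991, 1086, 1289.9 and 735 CPM in week 7 and at 482, 357, 682 and 536 CPM in week 10 (log2 fold change -0.996, SE 0.25, adjusted p = 0.24). The ages did not overlap for Acly, nor for Acaca, the rate-limiting acetyl-CoA carboxylase, at 383 to 558 and 162 to 324 CPM (-0.82, SE 0.22, adjusted p = 0.28).

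Elovl6, which extends palmitate, had the largest difference of the list, from 251, 434, 374 and 289 CPM to 117, 49.2, 179 and 133 CPM (log2 fold change -1.49, SE 0.40). Tkt, transketolase of the pentose phosphate path that yields NADPH, was at 718 to 1101 and at 381 to 605 CPM (-0.86, SE 0.19, adjusted p = 0.18), and DESeq2 on the 16 libraries called it. The mitochondrial citrate carrier Slc25a1 had a log2 fold change of -0.73, the malic enzyme Me1 one of -0.56, the acetyl-CoA synthetase Acss2 one of -0.64 and Mid1ip1, an activator of acetyl-CoA carboxylase, one of -0.61. Fasn, the synthase itself, was at 2148 to 3483 and at 1026 to 2544 CPM, ranges that overlap (-0.56, SE 0.29), and the desaturase Scd1 at 11680.0 to 15816 and at 9670.5 to 14783 CPM (-0.30, SE 0.19). Srebf1, a transcription factor of the pathway, stood at -0.33 (SE 0.11) and Elovl5 at 0.03 (SE 0.07).

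The level of the list, the mean log2 CPM of its genes, was 7.54, 7.58, 7.72 and 7.34 in week 7 and 7.05, 6.75, 7.25 and 7.21 in week 10, with no overlap. In eGFP mice its median fold change was -0.21, and its level was 6.87 to 7.00 and 6.27 to 6.92. No gene of the list was called in eGFP mice or in the difference between both courses. DESeq2 on the 8 LRG1 libraries, the fit added after seeing the data, called 7 of the 23 genes, all lower, beside 0.662% of all genes lower in that fit. Of genes outside this list that bear on fat storage, Angptl8, a feeding-induced inhibitor of lipoprotein lipase, was at 8.18 to 23.1 and at 3.54 to 6.99 CPM (-1.25, SE 0.31, adjusted p = 0.24).

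**Figure D4:**
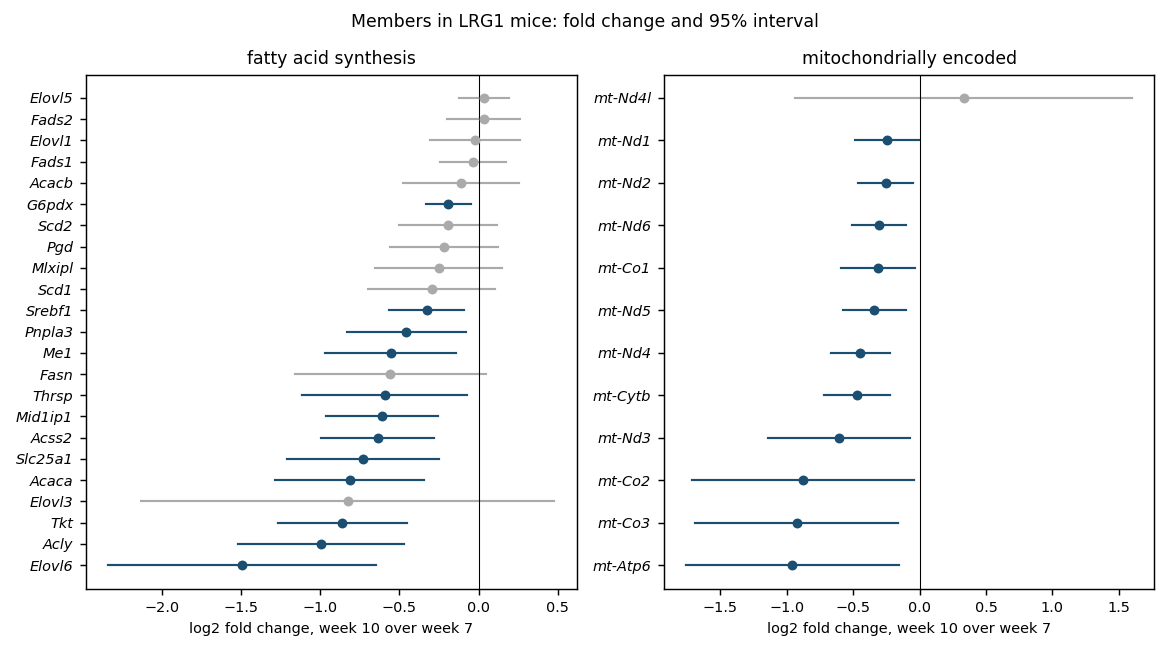
Log2 fold change, week 10 over week 7, in LRG1 mice (points, x axis) with 95% intervals (lines) for the 23 tested genes of fatty acid synthesis and the 12 mitochondrially encoded genes; dark colour marks an unadjusted p below 0.05. Of these, 12 and 11 genes are lower and none is higher, and no edgeR adjusted p is below 0.01.

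Genes of mitochondrial DNA, which encode subunits of the respiratory chain and of ATP synthase, were lower in 11 of 12 cases at an unadjusted p below 0.05, with a median log2 fold change of -0.39 and no called gene. All 12 lie on the same small genome and were read in the same libraries, so they are not independent observations. mt-Nd4, of complex I, was at 1704, 1386, 1342 and 1457 CPM in week 7 and at 1109.7, 932, 1114 and 1167 CPM in week 10 (-0.45, SE 0.10, adjusted p = 0.21). DESeq2 on the 16 libraries called mt-Nd4. mt-Cytb, of complex III, was at 5582 to 6504 and at 3867 to 4888 CPM (-0.47, SE 0.12), and mt-Co1, of complex IV, at 15270.0 to 19634 and at 13223 to 16262 CPM, where the ages overlap. The twelfth gene, mt-Nd4l, overlaps mt-Nd4 and was under 1 CPM. In eGFP mice the list's median was 0.01. No gene of it was called in eGFP mice or in the difference between both courses. Respiratory chain genes of the nucleus had a median of -0.10 over 53 genes, 12 of them lower at an unadjusted p below 0.05, and all 53 intervals lay within 1 log2 unit of 0.

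For these messages the share of a library's counts comes from the same counts as the CPM. It restates their fall and is no separate observation. Messages of mitochondrial DNA took 3.55%, 3.85%, 3.72% and 3.80% of counts in week 7 and 3.18%, 2.76%, 3.26% and 3.04% in week 10, and mitochondrial ribosomal RNA took 29.2% ± 1.51 (SD, n = 4) and 26.9% ± 1.52. By a two-sided exact permutation test the first difference had p = 0.0286, the smallest that 4 against 4 libraries allow, and the second p = 0.0857. Adjusted over the 6 shares and totals compared, these exact p-values were 0.0857 and 0.171. In the fit without mitochondrial genes the median of fatty acid synthesis was -0.46 as well.

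Thermogenic genes had a median of -0.17 over 20 genes, 4 of them lower at an unadjusted p below 0.05. Adrb3, the beta-3 adrenergic receptor of fat cells, was at 15.2, 19, 15.5 and 23.6 CPM and then at 11.3, 7.94, 10.5 and 6.49 CPM (log2 fold change -1.02, SE 0.31, adjusted p = 0.36). Cidea, a lipid droplet protein of brown and beige fat, was at 3.33 to 6.94 and at 1.33 to 2.96 CPM (-1.30, SE 0.37, adjusted p = 0.33), and the potassium channel Kcnk3 had a log2 fold change of -0.55 (SE 0.15). Ucp1, the uncoupling protein that defines such cells, had one of 0.35 (SE 0.59).

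Genes of antigen presentation and of the interferon-gamma response took another course in LRG1 than in eGFP mice. The difference between both courses, an interaction term over all 16 libraries, was above 0 for 64 genes (0.307%) and below 0 for 4 (0.0192%) at an adjusted p below 0.01. The 64 genes had a median log2 fold change of 0.40 in LRG1 mice, 62 of them above 0, and of -1.44 in eGFP mice, with 0 above 0. Both sets of libraries enter that difference, so the medians describe the called genes and test nothing further. None of the 64 but Prps1 was called within LRG1 mice. In whole tissue fewer cells of a type and less RNA per cell cannot be told apart, here and for the immune lists that follow.

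MHC class II genes encode the molecules that present peptides to helper T cells, their loading factors and their master regulator Ciita. H2-Ab1, a class II beta chain, was at 173, 195, 147 and 184 CPM in LRG1 mice of week 7 and at 278, 252, 290.3 and 184 CPM in those of week 10, groups that overlap by 1 library (log2 fold change 0.52, SE 0.17, adjusted p = 0.40). In eGFP mice it fell from 1204, 991, 822 and 1079 CPM to 287, 388, 309.9 and 459 CPM, and the difference between the courses was 2.03 (SE 0.24, adjusted p = 4.7e-04).

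Ciita itself was at 6.66 to 9.70 CPM in week 7 and at 10.2 to 11.95 CPM in week 10 in LRG1 mice, without overlap (0.30, SE 0.16, adjusted p = 0.67). The eGFP mice had 47.6 to 71.7 CPM and then 12.02 to 18.8 CPM, still above all LRG1 libraries. The peptide loading chain H2-DMb1 had a log2 fold change of 0.40 in LRG1 mice and of -1.93 in eGFP mice (difference 2.33, adjusted p = 3.6e-04), while H2-Eb1 had 0.52 and -1.81 and H2-DMa 0.15 and -1.54. Over the 13 genes of the list the median was 0.43 in LRG1 mice, with 6 higher at an unadjusted p below 0.05, and 8 of the 13 were called higher in the difference.

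Over all genes, 4.26% were higher at an unadjusted p below 0.05 in LRG1 mice. In eGFP mice 1.51% were called lower, and 0.307% were called higher in the difference. The interferon-gamma-induced list gave the same picture: a median of 0.37 in LRG1 mice with 7 of 34 genes higher at an unadjusted p below 0.05, one of -1.46 in eGFP mice with 27 genes called lower, and 17 genes called in the difference. Its level in LRG1 mice was 2.48, 3.12, 2.30 and 2.53 in week 7 and 2.98, 3.01, 3.26 and 2.74 in week 10, which overlap through week 7 replicate 2. Type I interferon-induced genes had a median of 0.08 over 34 genes in LRG1 mice and of -0.83 in eGFP mice, where 15 were called lower, and 1 was called in the difference. Psmb8, an immunoproteasome subunit, was at 7.10 to 11.3 and at 11.5 to 13.3 CPM (0.47, SE 0.13, adjusted p = 0.31) against 48.6 to 66.5 and 21.8 to 28.3 CPM in eGFP mice. The GTPases Gbp2, Gbp6 and Irgm2 had log2 fold changes of 0.29, 0.82 and 0.47 in LRG1 mice and differences of 1.81, 2.64 and 2.23 from eGFP mice. The class I-like genes H2-Q6 and H2-Q2, whose near-identical relatives may share their reads, had 0.63 and 0.33 and differences of 1.74 and 1.16.

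Promoters of the called interferon-gamma genes were searched because they moved as a group between the courses. The 300-base windows, 250 before and 50 after each start site, came from RefSeq (GRCm38.p6). The ISRE core, a site of interferon regulatory factors, was in 4 of the 10 called genes with a window and in 3.44% of all 32851 windows. The motif TTCNNNGAA, of interferon-gamma-responsive promoters, was in 3 of the 10 and in 8.3% of all windows, and both strands were read. A gene was counted if any of its windows matched, while the share over all is per window, so these are not like measures. The list was also chosen as interferon-gamma-induced. Over the whole list the ISRE core was in 11 of 21 members with a window and TTCNNNGAA in 9 of 21, so the called genes did not hold either motif more often than the list they came from. The windows of Psmb8 (chr17:34197945-34198244, plus strand), Irgm2 (chr11:58214727-58215026, plus strand) and Gbp2 (chr3:142620413-142620712, plus strand) belong to the 3 called genes with the smallest adjusted p and a match. They are given 5′ to 3′ with each match in capitals: Psmb8 holds TTCNNNGAA, Irgm2 both motifs and Gbp2 the ISRE core on its minus strand.
Psmb8: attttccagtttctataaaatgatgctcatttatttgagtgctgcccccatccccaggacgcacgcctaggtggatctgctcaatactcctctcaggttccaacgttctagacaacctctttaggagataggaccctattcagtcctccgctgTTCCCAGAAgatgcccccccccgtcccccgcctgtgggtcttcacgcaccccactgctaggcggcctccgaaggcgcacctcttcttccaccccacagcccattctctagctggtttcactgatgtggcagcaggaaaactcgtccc
Irgm2: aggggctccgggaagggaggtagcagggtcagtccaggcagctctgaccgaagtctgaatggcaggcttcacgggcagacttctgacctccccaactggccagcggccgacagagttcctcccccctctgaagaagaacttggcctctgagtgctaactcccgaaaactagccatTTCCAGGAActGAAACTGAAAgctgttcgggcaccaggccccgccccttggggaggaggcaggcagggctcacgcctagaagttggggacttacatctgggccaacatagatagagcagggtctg
Gbp2: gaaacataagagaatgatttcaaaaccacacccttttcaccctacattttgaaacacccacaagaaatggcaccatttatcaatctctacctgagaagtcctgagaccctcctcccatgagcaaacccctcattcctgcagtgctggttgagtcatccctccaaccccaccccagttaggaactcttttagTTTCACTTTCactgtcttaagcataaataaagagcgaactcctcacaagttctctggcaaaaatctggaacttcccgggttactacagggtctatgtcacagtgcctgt
A match is a description of the letters and shows no binding. Psmb8 overlaps Gm20496, Ciita overlaps Dexi, H2-DMa overlaps Brd2, Tox overlaps Gm11802 and Elovl6 overlaps Gm35986, and reads of such pairs may not be told apart where strand was not counted. Irgm2 and Igtp overlap on the same strand, so their reads may be mixed either way.

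The B cell and plasma cell list had the highest median of all lists, 1.10 over 24 genes, with 12 higher at an unadjusted p below 0.05 and none called. Its level was 0.95, 1.94, 0.84 and 1.18 in week 7 and 3.34, 2.18, 1.95 and 1.23 in week 10, so that replicate 4 of week 10 sat among the week 7 libraries. Igkc, the kappa light chain constant region, was at 14.1, 59.2, 17.9 and 15.1 CPM and then at 177, 85.3, 111 and 29.2 CPM (log2 fold change 1.92, SE 0.59, adjusted p = 0.38). Jchain, which joins secreted IgM and IgA, was at 1.30 to 6.97 and at 4.36 to 22.9 CPM (2.16, SE 0.54, adjusted p = 0.24). The IgA constant region Igha had separate ages at 0.103 to 0.878 and 1.51 to 5.54 CPM (3.13, SE 0.64, adjusted p = 0.12), and DESeq2 on 16 libraries called it. Pax5 and Ms4a1, both of B cells rather than plasma cells, were highest in replicate 1 of week 10, at 9.94 and 12.8 CPM.

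In eGFP mice the median of the B cell list was 1.59. There 4 of its genes were called higher and 1 lower, beside 0.629% and 1.51% of all genes. No gene of the list was called in the difference between both courses. The immunoglobulin share of counts in eGFP mice was 0.0495% to 0.0678% in week 7 and 0.154% to 0.418% in week 10, which was not tested. In LRG1 mice immunoglobulin genes took 0.0714% ± 0.00809 (SD, n = 4) of counts in week 7 and 0.109% ± 0.0279 in week 10 (two-sided exact permutation p = 0.0286, 0.0857 adjusted over the 6 shares and totals). With the counts of mitochondrial genes taken out of the total the p was 0.0571. The red blood cell list had the next highest median in LRG1 mice, 0.56 over 9 genes, with 0 at an unadjusted p below 0.05. Its level was 1.13 to 2.07 in week 7 and 1.13 to 2.84 in week 10, which overlap. Haemoglobin genes took 0.0172% of counts in week 7 and 0.0261% in week 10 (two-sided exact permutation p = 0.229). Whether blood content bears on the immune lists was not tested.

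T cell genes had a median of 0.33 over 26 genes in LRG1 mice, with 6 higher at an unadjusted p below 0.05, and of -1.12 in eGFP mice. The level of the list in LRG1 mice was -0.86 to 0.53 in week 7 and -0.18 to 0.58 in week 10, which overlap. Tox, a factor of activated and exhausted T cells, was at 0.260 to 0.675 and at 0.815 to 0.847 CPM against 7.60 to 17.3 and 2.24 to 3.69 CPM in eGFP mice (difference 3.27, adjusted p = 7.4e-04). Pdcd1, which encodes the checkpoint receptor PD-1, was at 0.0689 to 0.162 and at 0.108 to 0.490 CPM in LRG1 mice, and it passed the filter on low counts through the eGFP libraries (1.33 to 13.8 CPM). Cd3e, of the T cell receptor complex, had log2 fold changes of 1.12 in LRG1 mice and -1.80 in eGFP mice (difference 2.92, adjusted p = 0.016). Cytotoxic and natural killer genes had a median of 0.52 over 17 genes in LRG1 mice and of -1.28 in eGFP mice. Their level in LRG1 mice was -1.20 to 0.28 in week 7 and -0.27 to 0.55 in week 10, which overlap.

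**Figure D5:**
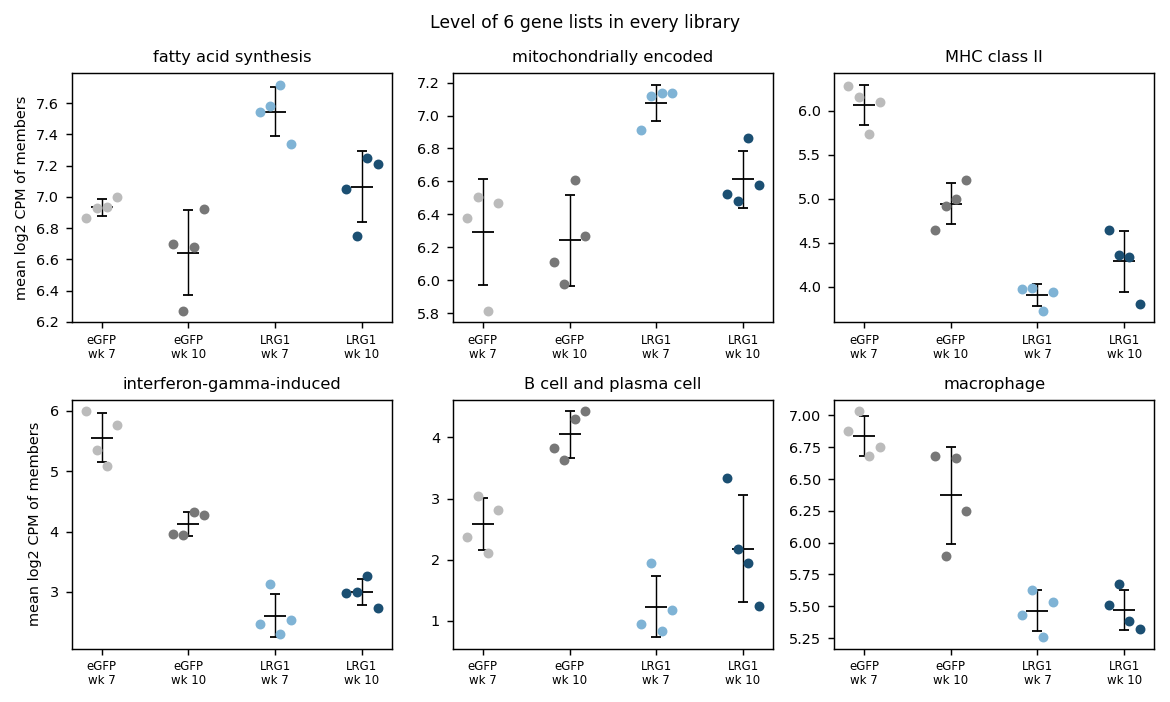
Mean log2 CPM of the members (y axis) of 6 gene lists in every library of the 4 groups; bars show mean and SD of 4 libraries. In LRG1 mice the fatty acid synthesis and mitochondrially encoded lists separate both ages, the B cell list runs from 1.23 to 3.34 in week 10, and the macrophage list lies between 5.26 and 5.67 at both ages.

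The study reported some chemokines and metalloproteinases as lower in LRG1 than in eGFP mice at both ages. Between the ages in LRG1 mice, which is another comparison, none of those it named showed a called change. The chemokine Cxcl9, an interferon-gamma target that draws T cells, was at 9.23, 45.8, 8.50 and 7.84 and at 17.3, 19.3, 41.9 and 14.04 CPM (0.38, SE 0.49). Ccl3 and Ccl4, chemokines of activated macrophages, were at 0.792 to 3.11 and 0.721 to 1.29 CPM and at 0.0975 to 1.11 and 0.180 to 0.359 CPM. The macrophage elastase Mmp12 was at 142 to 183 and at 140.1 to 260.5 CPM (0.13, SE 0.59), and the collagenase Mmp13 at 0.649 to 1.10 CPM over all 8.

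Beside them, Mmp12 in the eGFP mice of week 10 was at 4315, 314, 4942 and 583 CPM, and the median SD of log2 CPM over all genes was 0.32 in that group against 0.19 to 0.21 in the other 3. These libraries share the estimate of spread with the LRG1 comparison, as the fit on 8 libraries does not. The 4 genes with a lower course in LRG1 than in eGFP mice were Csmd1 (log2 fold change 0.40 in LRG1 and 2.74 in eGFP mice), the prostaglandin F receptor Ptgfr (-0.64 and 1.05), the stromelysin-3 gene Mmp11 (-0.21 and 1.33) and Olfr1033 (-0.13 and 0.95).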

How the data were processed

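Bulk RNA of eWAT from 16 db/db mice was sequenced in 4 groups of 4. The authors deposited raw counts per gene, which per the labels and the study's methods came from Cutadapt, STAR (mm10, GRCm38) and featureCounts; versions are not given in the sources used here. Strand, multi-mapped reads and reads of overlapping genes were handled in a way that is not given in the sources used here, which bears on paralogs and overlapping genes. The study's methods name DESeq2 for its own comparisons.

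From these counts, 20822 of 55573 genes passed filterByExpr (17401 had no count). Of the identifiers, 55394 matched a symbol in the gene table and 179 did not. Counts were scaled by TMM (factors 0.847 to 1.10) and fitted with edgeR 4.0.16 in R 4.3.3 (glmQLFit and glmQLFTest) with 1 coefficient for each of the 4 groups. Contrasts were week 10 minus week 7 in LRG1 mice, the same in eGFP mice, and their difference. A gene counted as called where its p, adjusted by Benjamini-Hochberg over all genes tested, was below 0.01. Fold changes are on the log2 scale. A list level is the mean log2 CPM of its tested genes (prior count 2). Shares of counts were compared with a two-sided exact permutation test over 70 splits, whose smallest p is 0.0286. DESeq2 1.42.0 and limma 3.58.1 served as alternatives. Totals of all 16 libraries ran from 45376227 to 67539937 counts, and the common coefficient of variation between mice was 0.203. In data simulated from these libraries (20458 genes passed the filter), 28 of the 67 genes given a 1.5-fold change passed with edgeR, as did 47 of 67 at 2-fold and 61 of 66 at 4-fold, beside 1 false call. With DESeq2 these were 37, 55 and 64, beside 14 false calls. Genes of low mean CPM were not among the changed ones, and each gene had the same spread in all 4 groups. The wider spread of the eGFP week 10 libraries was thus not modelled, and these rates need not hold for the real comparison.

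No library pair was found to be a duplicate. The members and the gene lists were chosen with earlier results of these data known. Genes were named where they were called (up to 15 in each direction, up to 4 in a list), where the study names them, or where they had the 5 smallest adjusted p-values in each direction of the difference; other genes named are list members, tissue markers or genes picked after their values were seen. Replicate numbers are shared between groups but did not pair the mice: correlations of same-numbered LRG1 libraries' deviations were -0.116, 0.0547, -0.0662 and 0.0648. Alternatives covered the test, the samples in the fit, the scaling, the filter, the threshold, the removal of mitochondrial or immunoglobulin genes and each library left out.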

Additional observations from a re-analysis of the deposited data

Results flagged for a closer look

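The course in LRG1 mice differed from that in eGFP mice, by the edgeR interaction term at an adjusted p below 0.01, for 19 of the genes named. The log2 difference was above 0 for Ciita (2.10), Gbp2 (1.81), Gbp6 (2.64), H2-Ab1 (2.03), H2-DMa (1.69), H2-DMb1 (2.33), H2-Eb1 (2.33), H2-Q2 (1.16), H2-Q6 (1.74), Irgm2 (2.23), Pdcd1 (3.70), Prps1 (1.24), Psmb8 (1.70), Tox (3.27) and Ubd (2.11). Pdcd1 passed the filter on low counts through the eGFP libraries and was under 0.5 CPM in all LRG1 libraries. It was below 0 for Csmd1 (-2.35), Mmp11 (-1.54), Olfr1033 (-1.08) and Ptgfr (-1.69).

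In 20 of 316 groups of 4 libraries, 1 library stood apart from the other 3 by a gap above Dixon's critical share of the group's range, and chance gives about 5% of groups. Among genes these shares were 0.889 for Ciita in week 10 (replicate 1, the highest), 0.963 for Cxcl9 in week 7 (replicate 2, 45.8 CPM), 0.895 for Endou in week 10 (replicate 2, the lowest), 0.916 for Igkc in week 7 (replicate 2, 59.2 CPM), 0.852 for Lrg1 in week 7 (replicate 1, 478 CPM), 0.936 for Mmp11 in week 10 (replicate 1, the lowest), 0.835 for Olfr1033 in week 7 (replicate 4, the highest) and 0.946 for Prps1 in week 10 (replicate 2, 99.3 CPM). For mt-Nd4l they were 0.897 in week 7 and 0.874 in week 10, replicate 3 in both. The share of counts on Lrg1 in week 7 gave 0.936, again through replicate 1.

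Among list levels, week 10 replicate 4 was the lowest for apoptosis, pyroptosis and necroptosis (0.905), TGF-beta, BMP and activin (0.965), neuron and Schwann cell (0.860) and dendritic cell genes (0.865). Week 10 replicate 3 was the highest for nuclear-encoded respiratory chain genes (0.857), replicate 1 for mesothelial genes (0.844) and replicate 2 for lysosome genes (0.849). In week 7, replicate 1 was the lowest for mitochondrially encoded genes (0.925) and replicate 2 for TGF-beta, BMP and activin genes (0.9755).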

How the results depend on the processing

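In LRG1 mice the count of called genes moved from 2 to 51 with DESeq2 on 16 libraries, to 10 with limma-voom and quality weights, to 11 with edgeR on the 8 LRG1 libraries, to 256 with DESeq2 on those 8 (chosen after seeing the data), to 1 with robust empirical Bayes and to 10 at an adjusted p below 0.05. Without 1 library it ranged from 0 to 4. In eGFP mice 446 became 1054 with DESeq2 on 16 libraries, 109 with edgeR on the 8 eGFP libraries, 846 with DESeq2 on those 8, 1220 at an adjusted p below 0.05 and 253 with an absolute log2 fold change above 1, and without 1 library it ranged from 180 to 479, with 180, 260 and 222 when eGFP week 7 replicate 1, 2 or 4 was left out. For the difference between the courses 68 became 263 with DESeq2, 122 with library size only, 104 with no filter and 196 at an adjusted p below 0.05. Without 1 library it ranged from 40 to 92, with 40 when eGFP week 7 replicate 4 or LRG1 week 7 replicate 1 or 3 was left out. The immunoglobulin share rose by 0.0491 percentage points with mitochondrial counts out of the total (exact permutation p = 0.0571). The causes were not tested.

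The replicate number as a block gave 0 calls in LRG1 mice, 258 in eGFP mice and 35 in the difference, and no LRG1 library correlated best with its own number, so the number was not taken to pair the mice.

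Of 189 genes of the LRG1 comparison tracked over 30 settings, 18 changed sign in some setting, and 0 of the 127 with an unadjusted p below 0.05 did. None of the 68 genes of the difference changed sign over 28 settings. The 9 list medians beyond 0.3 kept their sign, while 25 of all 57 changed it in some setting. The median of all genes lay between -0.014 and 0.034 under all scalings. With 4 mice a group, small fold changes were often not called.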

Other observations

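In eGFP mice 0.629% of all genes were called higher, the share to set beside the counts that follow. Mast cell genes had a median log2 fold change of -0.10 over 16 genes in LRG1 mice, with 0 called, and of 2.12 in eGFP mice, with 3 called higher. Their level (mean log2 CPM) in eGFP mice was 1.40 to 2.22 in week 7 and 4.18, 1.57, 4.30 and 2.62 in week 10, so that replicate 2 of week 10 lay within the range of week 7. Neutrophil and eosinophil genes had a median of 0.49 over 20 genes in LRG1 mice, with 0 called, and of 2.20 in eGFP mice, with 5 called higher. Their level in eGFP mice was -0.18 to 1.31 in week 7 and 3.14, 0.74, 3.71 and 2.40 in week 10, with replicate 2 again within the range of week 7. No gene of either list was called in the difference between the courses. Proliferation genes had medians of -0.15 and -0.56 over 32 genes.

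At an unadjusted p below 0.05, 4.13% of all genes were lower and 4.26% higher in LRG1 mice. Inflammatory cytokine genes had a median of -0.13 over 23 genes in LRG1 mice, with 5 lower at an unadjusted p below 0.05. Collagen processing and other matrix genes had one of -0.10 over 34 genes with 7 lower, and hypoxia and glycolysis genes one of -0.04 over 25 genes with 6 lower and 1 higher. No gene of these 3 lists was called in LRG1 mice.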
